A study of Homo sapiens with 12 samples.

Results

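Transcripts of 8 genes of fatty acid oxidation and of its control by the peroxisome proliferator-activated receptors (PPARs) were measured in lung cancer cells before and after EGFR inhibition. The genes were PPARGC1A, PDK4, ANGPTL4, PLIN2, CPT1A, CPT2, ACADVL and ACADM, and their rows were taken by symbol from a table of 60591 genes. PC9 and H1650 are established non-small cell lung cancer lines that carry an activating EGFR mutation. Erlotinib and osimertinib inhibit the EGFR tyrosine kinase, and the comparison asked how expression differs between lines that respond unlike each other to these drugs. Bulk polyA RNA was sequenced from cells labelled wild-type, which carry no engineered change. For each line there were 2 libraries of T0 (0 h, vehicle of 0.1% DMSO), 2 of 10 µM erlotinib for 36 h and 2 of 0.1 µM osimertinib for 36 h, which makes 12 libraries in 6 groups. All groups were grown in RPMI with serum and adhered overnight before the drugs were added. No vehicle library of 36 h was analysed here, so a change given for a drug includes any change with time in culture.

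Fatty acids are activated to acyl-CoA, carried into mitochondria by the carnitine shuttle and shortened there by repeated cycles of beta-oxidation. PPARs pair with retinoid X receptors (RXRs) on DNA and respond to fatty acids, and PDK4, ANGPTL4, PLIN2 and CPT1A are well-known targets of them in liver, muscle and fat. PDK4 phosphorylates and inhibits pyruvate dehydrogenase, which limits the entry of glucose carbon into the tricarboxylic acid cycle while fatty acids are burned.

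Promoter windows of PDK4, CPT1A, ANGPTL4 and PLIN2 are shown because these genes are the classical PPAR targets among the members. Each line gives the 250 bases that precede the RefSeq transcription start on GRCh38.p14, written 5′ to 3′ along the gene's strand, with capitals for matches on either strand to the motifs named after them.
PDK4, chr7:95596517-95596766, minus strand: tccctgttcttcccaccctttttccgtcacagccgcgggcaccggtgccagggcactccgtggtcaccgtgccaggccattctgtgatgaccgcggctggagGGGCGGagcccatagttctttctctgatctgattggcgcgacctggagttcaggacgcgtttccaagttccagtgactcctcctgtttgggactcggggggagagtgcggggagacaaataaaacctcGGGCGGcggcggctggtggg
CPT1A, chr11:68844278-68844527, minus strand: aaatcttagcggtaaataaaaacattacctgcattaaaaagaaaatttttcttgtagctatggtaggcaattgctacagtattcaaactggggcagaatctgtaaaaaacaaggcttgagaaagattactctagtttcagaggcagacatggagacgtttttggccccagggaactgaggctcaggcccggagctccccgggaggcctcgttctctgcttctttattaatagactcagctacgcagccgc
ANGPTL4, chr19:8363905-8364154, plus strand: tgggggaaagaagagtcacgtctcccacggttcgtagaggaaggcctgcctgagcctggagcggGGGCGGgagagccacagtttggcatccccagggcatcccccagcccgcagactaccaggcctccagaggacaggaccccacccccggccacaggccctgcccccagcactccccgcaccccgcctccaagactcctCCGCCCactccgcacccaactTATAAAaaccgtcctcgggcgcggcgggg
PLIN2, chr9:19127493-19127742, minus strand: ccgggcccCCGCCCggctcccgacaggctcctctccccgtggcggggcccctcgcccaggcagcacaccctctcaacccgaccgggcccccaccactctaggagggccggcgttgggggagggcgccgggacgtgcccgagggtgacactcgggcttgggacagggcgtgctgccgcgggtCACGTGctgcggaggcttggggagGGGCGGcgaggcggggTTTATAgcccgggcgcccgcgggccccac
The motifs searched were the E-box CACGTG, the GC box GGGCGG, the TATA box TATAAA, the forkhead site GTAAACA, the nuclear receptor half-site AGGTCA and a direct repeat of this half-site with 1 base between the copies, which PPAR and RXR bind as a pair. All 8 members had an entry, with 10 windows in all because PPARGC1A and ACADVL have 2 starts each. PLIN2 held an E-box at -69, a TATA box at -29 and GC boxes at -242 and -45, counted in bases from the start. ANGPTL4 likewise held a TATA box at -29, with GC boxes at -186 and -50. PDK4 held GC boxes at -148 and -20, and the CPT1A window held none of the 6 motifs. None of the 10 windows held the forkhead site, the half-site or the direct repeat, which occurred in 2.98%, 12.1% and 0.0171% of the 35116 RefSeq windows of the same length. Only exact matches within the 250 bases were sought, so sites farther away or with other letters were not covered. The CPT1A window lies partly, and the ANGPTL4 and PLIN2 windows wholly, within the GENCODE 29 spans of these genes given below. Starts farther upstream are thus annotated for these genes, and their promoters were not covered. The E-box occurred in 6.34% of those windows, the TATA box in 10.7% and the GC box in 42.6%. G and C made up 44.4% of the CPT1A window and 62.8%, 68.8% and 78.0% of the PDK4, ANGPTL4 and PLIN2 windows.

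Between 17961765 and 26346187 reads per library were assigned to genes, and 19108 genes passed the expression filter, among them 7 of the 8 members. Levels are given as normalized CPM, the reads relative to the library total after scaling by edgeR's TMM factors, and a count of 0 allows up to 3 reads, or 0.116 to 0.168 normalized CPM depending on the library, for counting error only. Mitochondrial genes took 4.36% to 5.36% of the reads in the 4 T0 libraries and 5.77% to 7.20% in the 8 treated libraries, and the part of this shift in the results was not tested. All 5 epithelial markers (EPCAM, CDH1, KRT8, KRT18 and KRT19) were above 1 CPM in both lines, with a sum of 5166 to 9156 CPM. The 3 leukocyte markers summed to at most 0.839 CPM, the 3 endothelial markers to 0.193 to 5.55 CPM and the 4 fibroblast markers to 10.3 to 44.9 CPM. Most of the fibroblast sum came from COL1A1, with group means of 10.6 to 40.7 CPM. The group means of PDGFRA, COL1A2 and DCN were at most 0.667, 0.102 and 0.0512 CPM. Of the adipocyte markers ADIPOQ, LEP and PLIN1, ADIPOQ was at 0 in all 12 libraries and the sum reached 2.03 CPM, with at most 3 LEP reads in a library and most of the sum from PLIN1, a lipid droplet gene that is described among the PPAR targets.

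**Figure D1:**
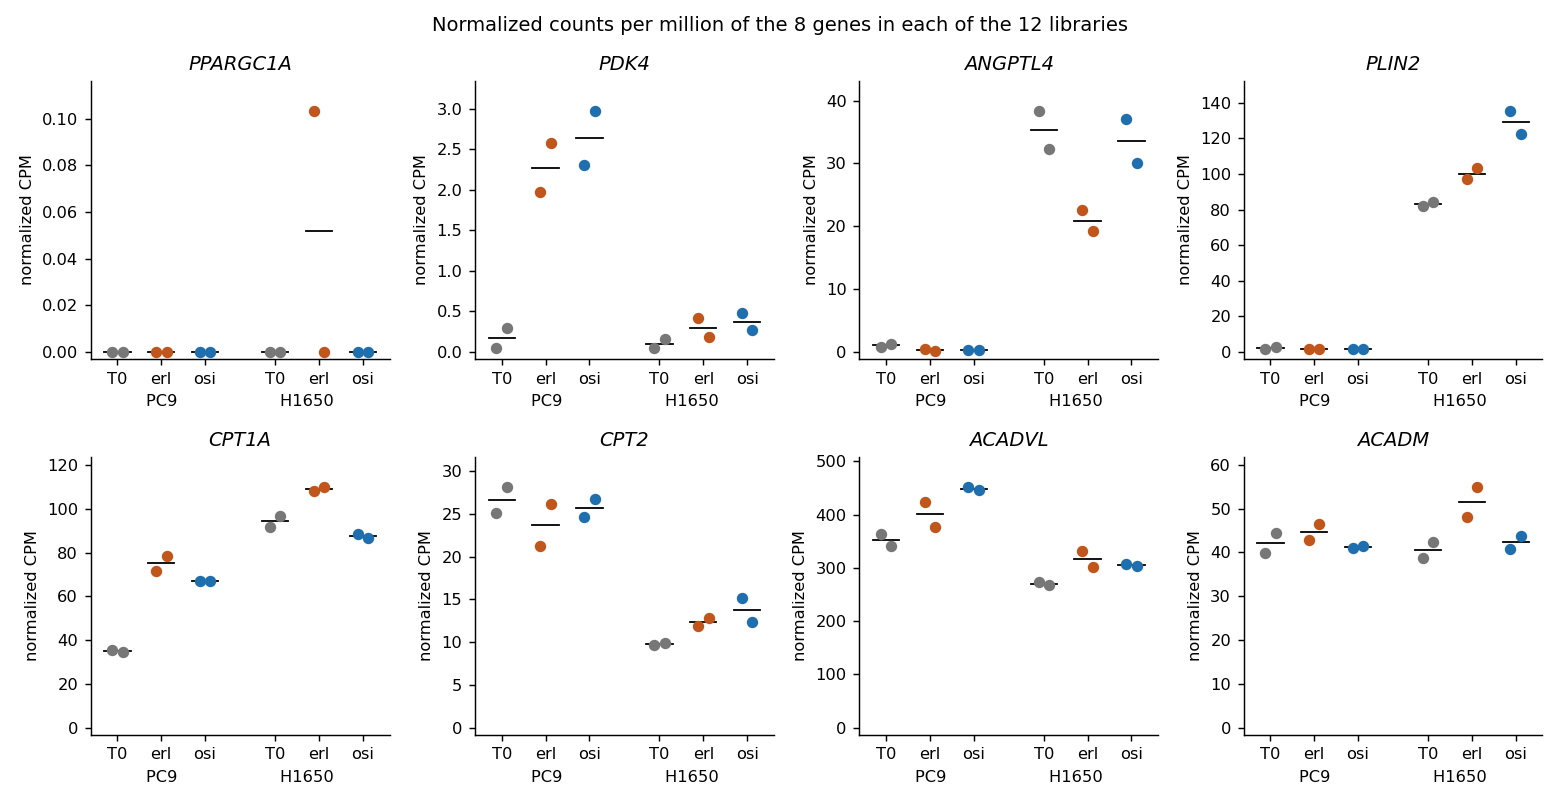
Normalized CPM (linear axis from 0, its own scale for each gene) of the 8 members in each of the 12 libraries at T0 and with erlotinib (erl) or osimertinib (osi). Points are libraries and bars are means of 2. PDK4 is high in the 4 treated PC9 libraries, CPT1A is higher in those than in both PC9 T0 libraries, and ANGPTL4 and PLIN2 are near the bottom of their axes in all 6 PC9 libraries.

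PPARGC1A encodes the coactivator PGC-1α, which boosts transcription by PPARs and drives mitochondrial biogenesis. It was not detectable in 11 of the 12 libraries, each of which held 0 reads, and the H1650 erlotinib replicate 1 library held 2. It did not pass the expression filter and was not tested. The gene lies at chr4:23755041-23904089 on the minus strand (GENCODE 29, GRCh38), and 2 antisense genes overlap its span without touching its exons.

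PDK4 was nearly absent at T0 and rose in PC9 with both drugs. PC9 T0 libraries held 1 and 6 reads, those treated with erlotinib 44 and 66, and those treated with osimertinib 50 and 53. This corresponds to 0.0504 and 0.296 normalized CPM at T0, 1.97 and 2.58 with erlotinib, and 2.31 and 2.97 with osimertinib. Every treated PC9 library was above both T0 libraries. The log2 fold change was 3.67 (SE 0.578, adjusted p = 3.26e-06) with erlotinib and 3.87 (SE 0.577, adjusted p = 1.28e-06) with osimertinib. As ratios of the pooled reads, the rise was 13.1-fold (95% counting interval 6.17 to 33.5) and 14.95-fold (7.002 to 38.1). A counting interval covers counting error only and leaves out the spread between libraries, here and for H1650 below. In bulk RNA, a change in the share of cells that express a gene and a change in the RNA per cell cannot be told apart.

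In H1650 the PDK4 reads stayed few, with 1 and 4 at T0, 8 and 4 with erlotinib, and 10 and 6 with osimertinib. A T0 library and an erlotinib library both held 4 reads, and both osimertinib libraries were above T0. In normalized CPM, which takes depth into account, T0 had 0.0466 and 0.154, erlotinib 0.413 and 0.186, and osimertinib 0.477 and 0.267. All treated H1650 libraries were thus above T0 on this scale, from few reads. The log2 fold changes of 1.44 (SE 0.846, adjusted p = 0.196) and 1.76 (SE 0.801, adjusted p = 0.0905) were not called, and the pooled ratios were 2.78 (95% counting interval 0.912 to 10.1) and 3.49 (1.22 to 12.2). Without single H1650 libraries the values ranged from 0.80 (without H1650 erlotinib replicate 1) to 2.52 (without H1650 T0 replicate 2) for erlotinib and from 1.23 (without H1650 T0 replicate 1) to 2.84 (without H1650 T0 replicate 2) for osimertinib, and none was called. The H1650 response less the PC9 response was -2.23 (95% interval -4.66 to 0.21, adjusted p = 0.143) for erlotinib and -2.11 (-4.51 to 0.29, adjusted p = 0.156) for osimertinib, so a difference between the lines in the response was not shown. Without PC9 T0 replicate 2 the PC9 changes were 5.34 and 5.55, without PC9 T0 replicate 1 they were 2.91 and 3.12, and the difference between the lines was called only without PC9 T0 replicate 2, at -3.91 (adjusted p = 0.0454) and -3.79 (adjusted p = 0.0494), while without H1650 T0 replicate 2 it was -1.15 and -1.03. PDK4 lies at chr7:95583499-95596491 on the minus strand, and no annotated gene overlaps it.

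ANGPTL4 is a secreted inhibitor of lipoprotein lipase, the enzyme that frees fatty acids from circulating triglycerides. It was 34.3-fold higher in H1650 than in PC9 at T0 (log2 5.10, SE 0.208, adjusted p = 2.81e-18). It fell in PC9 with both drugs and in H1650 with erlotinib. PC9 libraries had 0.756 and 1.28 normalized CPM at T0, 0.448 and 0.195 with erlotinib, and 0.370 and 0.280 with osimertinib. These correspond to 15 and 26 reads at T0 and to between 5 and 10 reads in the 4 treated libraries, which were all below T0. The PC9 log2 fold changes were -1.69 (SE 0.452, adjusted p = 0.00197) with erlotinib and -1.62 (SE 0.471, adjusted p = 0.00399) with osimertinib.

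H1650 libraries had 38.3 and 32.4 normalized CPM of ANGPTL4 at T0, 22.5 and 19.3 with erlotinib, and 37.1 and 30.1 with osimertinib. The erlotinib libraries were the lowest and the osimertinib libraries overlapped T0. ANGPTL4 changed by -0.76 (SE 0.136, adjusted p = 5.71e-05) with erlotinib and by -0.07 (SE 0.131, adjusted p = 0.721) with osimertinib. The osimertinib response differed between the lines by 1.54 (95% interval 0.54 to 2.55, adjusted p = 0.0122), the erlotinib response by 0.93 (-0.05 to 1.91, adjusted p = 0.127). Both PC9 calls were lost without PC9 T0 replicate 2, at -1.26 (adjusted p = 0.0634) for erlotinib and -1.19 (adjusted p = 0.0885) for osimertinib, and the erlotinib value was -2.36 without PC9 erlotinib replicate 1 and -1.18 without PC9 erlotinib replicate 2. The osimertinib difference between the lines was lost without PC9 T0 replicate 2 (1.11, adjusted p = 0.155) or PC9 osimertinib replicate 2 (1.38, adjusted p = 0.0678), and the erlotinib difference passed without PC9 erlotinib replicate 1 (1.60, adjusted p = 0.0494) and was 0.42 without PC9 erlotinib replicate 2 (adjusted p = 0.605). The gene lies at chr19:8363289-8374373 on the plus strand, and its exons overlap the antisense gene RAB11B-AS1, whose reads cannot be told apart from it where strand was not counted.

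PLIN2 coats lipid droplets, and its level generally follows the amount of stored lipid. At T0 it was 37.4-fold higher in H1650 than in PC9 (log2 5.22, SE 0.133, adjusted p = 6.4e-23). H1650 libraries had 81.9 and 84.3 normalized CPM at T0, 97.5 and 103 with erlotinib, and 135 and 123 with osimertinib. The 6 libraries were ordered by treatment without overlap, and PLIN2 rose by 0.27 (SE 0.0857, adjusted p = 0.0138) with erlotinib and by 0.63 (SE 0.0852, adjusted p = 9.66e-07) with osimertinib.

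In PC9, PLIN2 had 1.76 and 2.67 normalized CPM at T0, 1.61 and 1.41 with erlotinib, and 1.80 and 1.46 with osimertinib. Both erlotinib libraries were below T0 and an osimertinib library lay within the T0 range. PLIN2 fell by 0.56 on the log2 scale with erlotinib (SE 0.229, adjusted p = 0.0359) and its change with osimertinib was -0.43 (SE 0.235, adjusted p = 0.116). The responses of the lines differed by 0.83 (95% interval 0.33 to 1.33, adjusted p = 0.00728) with erlotinib and by 1.06 (0.55 to 1.58, adjusted p = 0.000951) with osimertinib, H1650 being higher. The PC9 erlotinib call was lost with a fit to PC9 alone (adjusted p = 0.121), without PC9 T0 replicate 2 (-0.24, adjusted p = 0.535) and without PC9 erlotinib replicate 1 (-0.66, adjusted p = 0.0505) or replicate 2 (-0.46, adjusted p = 0.179), the osimertinib change passed without PC9 T0 replicate 1 (-0.70, adjusted p = 0.0248), and the H1650 erlotinib call was lost without H1650 T0 replicate 1 (0.25, adjusted p = 0.095) or H1650 erlotinib replicate 2 (0.22, adjusted p = 0.121). The differences between the lines were lost without PC9 T0 replicate 2 (0.50, adjusted p = 0.219, and 0.74, adjusted p = 0.0643) and, for erlotinib, without PC9 erlotinib replicate 2 (0.73, adjusted p = 0.0526). PLIN2 lies at chr9:19108375-19149290 on the minus strand with no overlapping gene.

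CPT1A catalyzes the transfer of long-chain acyl groups to carnitine on the outer mitochondrial membrane, the step that controls the rate of fatty acid oxidation. It rose in PC9 with both drugs, and the response in H1650 was lower with both. PC9 libraries had 35.6 and 34.6 normalized CPM at T0, 71.7 and 78.6 with erlotinib, and 66.9 and 67.0 with osimertinib. All 4 treated libraries were above T0, with fold changes of 2.14 for erlotinib (log2 1.10, SE 0.0800, adjusted p = 1.54e-12) and 1.91 for osimertinib (log2 0.93, SE 0.0809, adjusted p = 5.7e-11).

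H1650 libraries already had 91.9 and 97.0 normalized CPM of CPT1A at T0, against 108 and 110 with erlotinib and 88.5 and 86.5 with osimertinib. The erlotinib libraries were the highest and the osimertinib libraries the lowest of the line. CPT1A rose by 0.21 (SE 0.0746, adjusted p = 0.0289) with erlotinib, and its change with osimertinib was -0.11 (SE 0.0750, adjusted p = 0.273). The response in H1650 was lower than that in PC9 by -0.89 (95% interval -1.12 to -0.67, adjusted p = 1.26e-07) for erlotinib and -1.04 (-1.27 to -0.82, adjusted p = 7.91e-09) for osimertinib. At T0, CPT1A was 2.69-fold higher in H1650 (log2 1.43, SE 0.0798, adjusted p = 3.45e-15), and in drug the gap was 1.45-fold and 1.31-fold. The H1650 erlotinib call was lost with DESeq2 (adjusted p = 0.0674), RLE normalization (0.0567) or no filter (0.124), and without any of the 4 libraries compared (0.17 and 0.25 without H1650 T0 replicate 1 and 2, 0.23 and 0.19 without H1650 erlotinib replicate 1 and 2, adjusted p = 0.0579 to 0.222). CPT1A lies at chr11:68754620-68844410 on the minus strand with no overlapping gene.

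CPT2 returns the acyl group from carnitine to CoA inside the mitochondrion. Unlike CPT1A it was lower in H1650 than in PC9 at T0, by a factor of 2.72 (log2 -1.44, SE 0.131, adjusted p = 1.27e-10). PC9 libraries had 25.2 and 28.2 normalized CPM at T0, 21.2 and 26.2 with erlotinib, and 24.6 and 26.7 with osimertinib. The PC9 groups overlapped, and neither change was called (-0.17, SE 0.121, adjusted p = 0.237, and -0.06, SE 0.122, adjusted p = 0.723). H1650 libraries had 9.65 and 9.95 normalized CPM at T0, 11.9 and 12.8 with erlotinib, and 15.2 and 12.3 with osimertinib. All 4 treated H1650 libraries were above T0, and CPT2 rose by 0.49 with osimertinib (SE 0.137, adjusted p = 0.00614) while the erlotinib change of 0.33 (SE 0.139, adjusted p = 0.0622) was not called. The lines differed in their response by 0.50 (95% interval 0.12 to 0.88, adjusted p = 0.0303) with erlotinib and 0.54 (0.16 to 0.92, adjusted p = 0.0184) with osimertinib.

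The CPT2 rise in H1650 with osimertinib was lost without H1650 osimertinib replicate 1 (0.33, adjusted p = 0.145), and its erlotinib change was called with at least 10 counts required in every library (adjusted p = 0.0412). Both differences between the lines were lost with DESeq2 (adjusted p = 0.0819 and 0.0524), that for erlotinib also without PC9 T0 replicate 2, PC9 erlotinib replicate 1, H1650 T0 replicate 1 or 2, or H1650 erlotinib replicate 2 (0.42, 0.36, 0.50, 0.53 and 0.45, adjusted p = 0.0538 to 0.155), and that for osimertinib without PC9 T0 replicate 2, PC9 osimertinib replicate 1 or H1650 osimertinib replicate 1 (0.46, 0.48 and 0.40, adjusted p = 0.0715 to 0.13). CPT2 lies at chr1:53196429-53214197 on the plus strand, and its exons overlap AL606760.2 and C1orf123 on the opposite strand.

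ACADVL and ACADM encode the acyl-CoA dehydrogenases that open each cycle of beta-oxidation for very long-chain and medium-chain substrates. ACADVL was the most abundant member per length in all 6 groups, and its largest drug change was 1.27-fold. PC9 libraries had 363 and 341 normalized CPM of ACADVL at T0, 424 and 377 with erlotinib, and 452 and 445 with osimertinib. In H1650 the values were 273 and 268 at T0, 331 and 301 with erlotinib, and 308 and 304 with osimertinib. Every treated library was above both T0 libraries of its line. ACADVL rose in PC9 by 0.19 (SE 0.0720, adjusted p = 0.0275) with erlotinib and 0.35 (SE 0.0721, adjusted p = 0.000121) with osimertinib, and in H1650 by 0.22 (SE 0.0724, adjusted p = 0.0157) with erlotinib, while the change with osimertinib in H1650 was 0.18 (SE 0.0723, adjusted p = 0.054). The lines did not differ detectably in either response, at 0.04 (95% interval -0.17 to 0.25) and -0.17 (-0.38 to 0.04). At T0, ACADVL was 1.30-fold lower in H1650 (log2 -0.38, SE 0.0724, adjusted p = 3.74e-05).

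The ACADVL call in PC9 with erlotinib was lost with RLE normalization (adjusted p = 0.0573), no filter (0.182), a fit to PC9 alone (0.0932) and without PC9 T0 replicate 2 (0.14), PC9 erlotinib replicate 1 (0.10), H1650 T0 replicate 1 (0.17) or H1650 osimertinib replicate 1 or 2 (0.17 each), and that in H1650 with erlotinib without H1650 T0 replicate 1 (0.23) or 2 (0.21) or H1650 erlotinib replicate 1 (0.16). The H1650 osimertinib change passed with at least 10 counts in every library (adjusted p = 0.0284), with a fit to H1650 alone (0.0467) and without any one of the 4 erlotinib libraries (0.0473 to 0.0483). ACADVL lies at chr17:7217125-7225273 on the plus strand, and DLG4 overlaps its exons on the opposite strand.

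ACADM was the member whose levels were most alike across groups. PC9 libraries had 39.9 and 44.4 normalized CPM at T0, 42.7 and 46.5 with erlotinib, and 41.0 and 41.5 with osimertinib, and H1650 libraries had 38.7 and 42.4, 48.1 and 55.0, and 40.8 and 43.8. Only the H1650 erlotinib libraries stood above the rest. ACADM rose there by 0.35 (SE 0.0922, adjusted p = 0.00374), and the other drug changes were 0.08, -0.03 and 0.06 with 95% intervals that lay between -0.23 and 0.27. The lines did not differ detectably at T0 (-0.06, 95% interval -0.25 to 0.14). The H1650 erlotinib call was lost without H1650 T0 replicate 1 (0.28, adjusted p = 0.069) or H1650 erlotinib replicate 2 (0.24, adjusted p = 0.114). ACADM lies at chr1:75724347-75787575 on the plus strand, and its exons overlap those of RABGGTB on the same strand, so its count can lose or include reads of that gene.

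Across the drug comparisons, 5 of the 7 tested members were called in PC9 with erlotinib (3 higher and 2 lower), where 61.8% of all tested genes were called (32.7% higher and 29.1% lower). With osimertinib 4 members were called in PC9 (3 higher and 1 lower) against 61.4% of all genes (32.7% higher and 28.7% lower). In H1650, 5 members were called with erlotinib (4 higher and 1 lower) against 36.5% (18% higher and 18.5% lower), and 2 with osimertinib (both higher) against 35.7% (17.8% higher and 17.9% lower). The PC9 shares of 71.4% and 57.1% of the tested members lie near those of all genes. In H1650 the share of the 7 members was 71.4% with erlotinib, above the 36.5% of all genes. With osimertinib it was 28.6%, below the 35.7% of all genes. The members were chosen with earlier results of these data known, so these shares are not independent evidence about the genes. The median log2 fold change over the tested members was 0.08 and -0.03 in PC9 and 0.27 and 0.18 in H1650, beside 0.07, 0.06, 0.0051 and 0 for all tested genes. The difference between the lines was called for 3 members with erlotinib (2 higher and 1 lower in H1650), beside 40.8% of all genes (21.1% higher and 19.8% lower). With osimertinib it was called for 4 members (3 higher and 1 lower), beside 41.9% (21.5% higher and 20.5% lower). With both drugs the signed difference (H1650 less PC9) was negative for CPT1A and positive for CPT2 and PLIN2. The erlotinib and osimertinib comparisons of a line share its T0 libraries. Counts fell without single libraries, to 2 in PC9 with erlotinib and 3 with osimertinib without PC9 T0 replicate 2, to 3 in PC9 with erlotinib without PC9 erlotinib replicate 1, to 1 in H1650 with erlotinib without H1650 T0 replicate 1, to 3 without H1650 T0 replicate 2 or H1650 erlotinib replicate 1, to 2 without H1650 erlotinib replicate 2, and to 1 in H1650 with osimertinib without H1650 osimertinib replicate 1. For the osimertinib difference between the lines the count was 2 without PC9 T0 replicate 2.

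**Figure D2:**
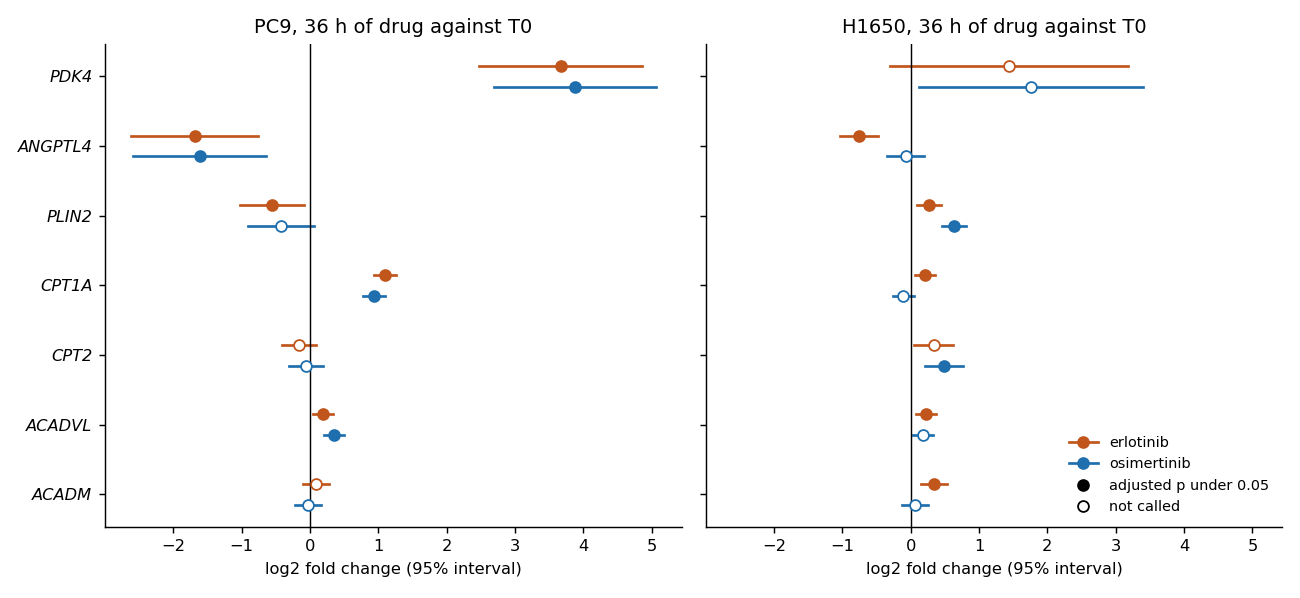
Log2 fold change of the 7 tested members after 36 h of erlotinib or osimertinib against T0, in PC9 (left) and H1650 (right). Points are fitted values from 2 libraries a group, lines are 95% intervals, and filled points have an adjusted p under 0.05. PDK4 and CPT1A lie to the right of 0 and ANGPTL4 to the left in PC9 with both drugs, and the fitted H1650 changes are smaller for these genes. The difference between the lines was called for CPT1A with both drugs and for ANGPTL4 with osimertinib only, and not for PDK4.

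Osimertinib and erlotinib were compared within each line at 36 h, at doses that differ (0.1 µM and 10 µM). In PC9, 0 of the 7 members were called by edgeR, beside 16.6% of all tested genes (10.1% higher and 6.41% lower), with 2 members (CPT1A and ACADVL) at an unadjusted p under 0.05 and 0 called by DESeq2. The PC9 differences (osimertinib minus erlotinib, log2) were -0.17 for CPT1A (95% interval -0.32 to -0.01) and 0.17 for ACADVL (0.02 to 0.31). For PDK4 the difference of 0.21 had an interval of -0.60 to 1.01. In H1650, 3 members were called (2 higher and 1 lower) beside 8.75% of all genes (5.02% higher and 3.73% lower). ANGPTL4 was higher with osimertinib by 0.68 (SE 0.136, adjusted p = 0.00114) and PLIN2 by 0.36 (SE 0.0849, adjusted p = 0.00534), whereas CPT1A was lower, at -0.32 (SE 0.0750, adjusted p = 0.00558). ACADM, at -0.29, was just outside the threshold (SE 0.0924, adjusted p = 0.0517) and passed it without PC9 erlotinib replicate 1 or 2 or H1650 erlotinib replicate 1 (adjusted p = 0.0338 to 0.0451). All 3 calls were lost without H1650 osimertinib replicate 1 (0.53 for ANGPTL4, 0.29 for PLIN2 and -0.33 for CPT1A), that of PLIN2 also without H1650 erlotinib replicate 1 (0.32), and that of CPT1A without H1650 erlotinib replicate 2 or H1650 osimertinib replicate 2 (-0.30 each).

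Between the lines at T0, 5 of the 7 tested members were called (3 higher and 2 lower in H1650), beside 69.6% of all tested genes (35.8% higher and 33.8% lower). PLIN2, ANGPTL4 and CPT1A were higher in H1650, CPT2 and ACADVL were lower, and the differences for PDK4 (-0.70, 95% interval -2.64 to 1.24) and ACADM were not called. In drug-treated cells, a comparison added after the data were seen, ANGPTL4 was 65.5-fold higher in H1650 with erlotinib and 100.2-fold with osimertinib, and PLIN2 66.5-fold and 78.1-fold. The ANGPTL4 log2 difference with erlotinib was 6.03, and 6.70 without PC9 erlotinib replicate 1. PDK4 was lower in treated H1650 than in treated PC9, by -2.93 (SE 0.525, adjusted p = 1.64e-05, and -3.57 without H1650 erlotinib replicate 1) with erlotinib and -2.81 (SE 0.499, adjusted p = 1.41e-05) with osimertinib. The treated libraries did not overlap, as H1650 held 4 to 10 PDK4 reads and PC9 44 to 66. All 7 members were called with erlotinib and 6 with osimertinib, 4 and 3 of them higher and 3 in each case lower, beside 72.1% of all genes with erlotinib (36.7% higher and 35.4% lower) and 71.6% with osimertinib (36.6% higher and 35.0% lower). ACADM, which was 0.21 higher with erlotinib (adjusted p = 0.0439), lost its call with DESeq2, with RLE normalization, under either other filter, and without PC9 erlotinib replicate 1, either PC9 osimertinib library, H1650 T0 replicate 1, H1650 erlotinib replicate 2 or either H1650 osimertinib library (0.10 to 0.21).

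Levels were compared between genes per length, as normalized CPM per kb of the gene length in the table. At T0 in PC9 the order was ACADVL (73.0), ACADM (8.81), CPT1A (5.34), CPT2 (2.64), PLIN2 (0.442), ANGPTL4 (0.412) and PDK4 (0.0381), and the replicates of PLIN2 and ANGPTL4 overlapped. In H1650 at T0 the order was ACADVL (56.1), PLIN2 (16.6), CPT1A (14.4), ANGPTL4 (14.3), ACADM (8.48), CPT2 (0.972) and PDK4 (0.0221), and those of CPT1A and ANGPTL4 overlapped. Thus the lipid droplet gene PLIN2 stood directly below ACADVL in H1650 and below CPT2 in PC9. ACADVL lay between the 96.2 and 98.1 percentiles of all tested genes in every group, PLIN2 at 27.2 in PC9 and 84.8 in H1650 at T0, and PDK4 at 7.73 and 5.00. In treated PC9 cells CPT1A (11.4 with erlotinib and 10.2 with osimertinib) stood above ACADM (9.33 and 8.62), and PDK4 (0.500 and 0.581) above PLIN2 (0.301 and 0.325), without overlap of their libraries.

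**Figure D3:**
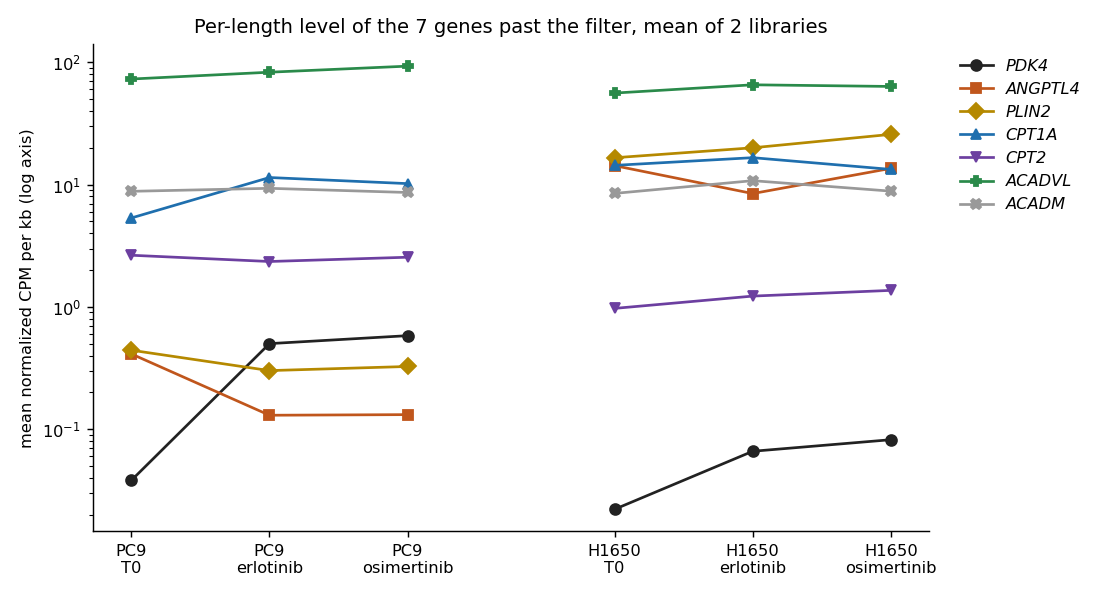
Mean normalized CPM per kb (log axis, means of 2 libraries) of the 7 tested members in the 6 groups. ACADVL is on top throughout, PDK4 climbs from the bottom in treated PC9 cells, and PLIN2 and ANGPTL4 lie below 1 in PC9 and above 8 in H1650.

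For each tested member, the 2 genes with a mean of at least 10 CPM whose log2 levels followed it most closely over the 12 libraries were named as a description. The points share cell line and library, so much of a likeness can be the gap between the lines. At T0 that gap was not called for PDK4 and ACADM. PDK4 was closest to MED28 and TCAIM (Pearson's r 0.971 and 0.970), CPT1A to WDR11 and NUTM2A-AS1 (0.984 and 0.978), and PLIN2 to FBN3 and MSX2 (0.999 and 0.997). WDR11 had the same order of group means as CPT1A, with 35.4 normalized CPM at T0, 64.1 with erlotinib and 58.7 with osimertinib in PC9, and 88.7, 98.9 and 87.2 in H1650. ANGPTL4 was closest to C12orf75 and SLC16A14 (0.9965 and 0.996), CPT2 to ADGRF5 and MAX (0.985 and 0.984), and ACADVL to KLK10 and GATA3 (0.984 and 0.981). ACADM had no comparably close companion, at 0.920 for ZNF664 and 0.811 for ARHGEF35.

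The other genes of the pathway were described from 7 lists of 114 genes, of which 99 were tested. In PC9, 77 were called with erlotinib (45 higher and 32 lower) and 72 with osimertinib (44 and 28), which is 77.8% and 72.7% beside 61.8% and 61.4% of all genes. In H1650, 50 were called with erlotinib (37 higher and 13 lower) and 54 with osimertinib (36 and 18), which is 50.5% and 54.5% beside 36.5% and 35.7%. All the lists were chosen with earlier results of these data known, so their shares and medians are not independent evidence. The median changes were 0.20, 0.13, 0.15 and 0.17, beside 0.07, 0.06, 0.0051 and 0 for all genes. From here on 4 values after a gene are its log2 fold changes against T0 in PC9 with erlotinib, PC9 with osimertinib, H1650 with erlotinib and H1650 with osimertinib. Their standard errors lay between 0.0717 and 0.333, except for PLIN1, PLIN5 and G0S2 (0.323 to 0.715), which had few reads. Exons of CRAT, SLC27A2, RXRB, FABP5, PNPLA2, BSCL2, ABHD5, PDK1, PDK2 and PLIN4 overlap other genes on the opposite strand. Reads of those other genes cannot be told apart from theirs where strand was not counted.

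Among 15 tested receptors and cofactors, the response differed between the lines for 8 with each drug, which is 53.3% beside 40.8% and 41.9% of all genes. PPARA, the receptor that drives fatty acid oxidation in liver, rose in all 4 comparisons (1.62, 1.38, 0.76 and 0.46, adjusted p at most 0.000235), less in H1650 than in PC9 by -0.85 (adjusted p = 3.57e-06) and -0.92 (adjusted p = 1.23e-06). Its normalized CPM was 33.7 at T0 and 103 and 87.6 in drug in PC9, and 27.1, 45.9 and 37.4 in H1650. PPARG, the receptor of fat cell formation and lipid storage, fell in PC9 and rose in H1650 (-1.69, -1.82, 0.35 and 0.24). Its responses differed between the lines by 2.04 (95% interval 1.78 to 2.31, adjusted p = 2.92e-13) and 2.06 (1.79 to 2.33, adjusted p = 3e-13). The rise of PPARG in H1650 was lost with erlotinib without H1650 T0 replicate 2 (0.30, adjusted p = 0.0541), and with osimertinib with DESeq2, RLE normalization or no filter and without any of the 4 libraries compared or either PC9 T0 library (0.19 to 0.29). PPARD fell in PC9 (-0.53 and -0.43) and its H1650 changes of 0.20 and 0.12 were not called. The partners RXRA (0.78, 0.59, 0.62 and 0.56) and RXRB (1.12, 1.10, 0.36 and 0.42) rose in all 4 comparisons, RXRB in H1650 with erlotinib not without H1650 erlotinib replicate 1 (0.24, adjusted p = 0.088).

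The coactivator gene PPRC1, a relative of PPARGC1A, fell in all 4 comparisons (-1.34, -1.42, -0.44 and -0.53). PPARGC1B, the closest paralog of PPARGC1A and named after its values were seen, was detected where PPARGC1A was not, at 7.65 normalized CPM in PC9 and 15.1 in H1650 at T0. PPARGC1B fell in PC9 (-0.98 and -1.05), its H1650 changes of 0.25 and 0.23 were not called, and the responses differed by 1.23 (adjusted p = 2e-05) and 1.28 (adjusted p = 1.51e-05). In this list of 17 receptors and cofactors, 15 were tested and 5, 4, 6 and 4 were called higher and 6, 7, 2 and 4 lower.

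Of 20 other PPAR targets 14 were tested, and 8, 8, 6 and 6 were called higher and 4, 2, 2 and 2 lower, with median changes of 1.05, 1.27, 0.54 and 0.76. The list was written with earlier results of these libraries known, so its direction is not independent evidence. PLIN1 and PLIN5, which coat lipid droplets like PLIN2, rose in all 4 comparisons from few reads. PLIN1 had 5 and 7 reads in PC9 at T0, 36 to 50 with erlotinib and 18 to 24 with osimertinib, and 1 and 6, 38 and 39, and 31 and 37 reads in H1650. The PLIN1 changes were 2.55, 1.81, 3.63 and 3.36 (SE 0.483 to 0.542) and the PLIN5 changes 2.85, 2.53, 2.39 and 2.52 (SE 0.499 to 0.520). Those of PLIN1 in H1650 were 5.17 and 4.90 without H1650 T0 replicate 2 and 2.99 and 2.73 without H1650 T0 replicate 1, and that of PLIN5 in PC9 with osimertinib was 1.87 without PC9 osimertinib replicate 2. Exons of PLIN5 overlap AC011498.4 on the same strand, so its reads may be split. FABP5, a fatty acid binding protein, fell 16.8-fold and 18.4-fold in PC9 and 1.64-fold and 1.39-fold in H1650 (-4.07, -4.20, -0.71 and -0.47), and the responses differed by 3.36 (adjusted p = 8.98e-14) and 3.73 (adjusted p = 2.32e-14). Since 14 pseudogenes are named after FABP5, its reads may be split. G0S2, an inhibitor of the lipase PNPLA2, fell in PC9 (-1.90 and -4.04), and its H1650 changes of -0.24 and -0.96 from 0.330 normalized CPM at T0 were not called.

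Among 14 other genes of lipid droplets and lipolysis, 10 were tested and 3, 5, 3 and 3 were called higher and 4, 3, 2 and 2 lower. PNPLA2, the lipase that starts triglyceride breakdown, rose in all 4 comparisons (1.99, 2.23, 0.63 and 0.61, adjusted p at most 1.05e-05), from 45.3 to 180 and 212 normalized CPM in PC9 and from 54.9 to 85.1 and 83.8 in H1650. Its activator ABHD5 fell in PC9 (-1.32 and -1.04), with H1650 values of -0.13 and -0.14 that were not called. SOAT1, which esterifies cholesterol, fell in all 4 (-1.09, -0.95, -0.36 and -0.28), with osimertinib in H1650 not without H1650 T0 replicate 2 (-0.23) or H1650 osimertinib replicate 2 (-0.22). BSCL2, which encodes seipin of lipid droplet assembly, rose in PC9 (1.28 and 1.06), and its H1650 values of 0.07 and 0.27 were not called. Its exons are shared with the read-through gene HNRNPUL2-BSCL2. PLIN4, a further droplet protein that is on the PPAR target list and was named after its values were seen, rose in all 4 comparisons (2.07, 1.58, 1.59 and 0.87), from 1.20 to 5.08 and 3.55 normalized CPM in PC9 and from 12.3 to 37.3 and 22.6 in H1650. PLIN1, PLIN4 and PLIN5 thus rose in PC9, where PLIN2 did not rise.

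Of 14 genes of fatty acid activation and the carnitine shuttle, 13 were tested and 7, 6, 6 and 6 were called higher and 5, 3, 3 and 4 lower. CRAT, the carnitine acetyltransferase, rose in all 4 comparisons (1.24, 0.97, 0.48 and 0.37), with osimertinib in H1650 not without H1650 T0 replicate 2 (0.26). CPT1B, the muscle form of CPT1A, rose in PC9 (1.06 and 0.82) and in H1650 with erlotinib (0.86), while its H1650 osimertinib change of 0.64 (adjusted p = 0.0724) was not called, with group means of 2.09 to 4.38 normalized CPM over both lines. The CPT1B calls for osimertinib in PC9 and erlotinib in H1650 were lost with DESeq2 (adjusted p = 0.0538 and 0.0515), the first without PC9 T0 replicate 1 or PC9 osimertinib replicate 1 (0.70 each) and the second without H1650 T0 replicate 1 (0.50) or H1650 erlotinib replicate 1 (0.63). The H1650 osimertinib change of CPT1B ranged from 0.29 without H1650 T0 replicate 1 to 1.18 without H1650 T0 replicate 2, where it was called (adjusted p = 0.00896), and its exons are shared with the read-through gene CHKB-CPT1B. The fatty acid transporter SLC27A4 fell in all 4 (-1.66, -1.97, -0.34 and -0.36), from 94.6 to 29.9 and 24.1 normalized CPM in PC9. SLC27A2, a relative of SLC27A4, fell in PC9 only among the calls (-1.12 and -1.10), with H1650 values of 0.47 and 0.22.

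Of 18 genes of mitochondrial beta-oxidation beside ACADVL and ACADM, 17 were tested and 9, 6, 7 and 5 were called higher and 5, 4, 1 and 2 lower. DECR1, which reduces unsaturated intermediates, rose in all 4 comparisons (1.26, 1.44, 0.50 and 0.62), as did the short-chain dehydrogenase ACADS (1.14, 1.10, 0.63 and 0.71). HADH, of the third step of the cycle, fell in PC9 (-0.97 and -1.11) and in H1650 with osimertinib (-0.25), the last not without any of the 4 libraries compared (-0.22 to -0.27). ETFA, which passes electrons from the dehydrogenases to the respiratory chain, fell in PC9 (-0.74 and -0.61) and in H1650 with osimertinib (-0.20), the last not without filter nor without H1650 T0 replicate 1 or 2, H1650 osimertinib replicate 1 or either PC9 T0 library (-0.13 to -0.25). In the peroxisome, where 12 of 13 genes were tested, 7, 9, 6 and 6 were called higher and 2, 2, 1 and 0 lower. PEX11A, which promotes peroxisome division, rose in all 4 comparisons (0.93, 1.01, 1.52 and 1.39). ACOX3 rose in PC9 (1.24 and 1.05), and ABCD3 fell in PC9 (-0.74 and -0.59) and in H1650 with erlotinib (-0.21, lost without H1650 erlotinib replicate 1 or any of the T0 or H1650 osimertinib libraries).

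All 18 genes of the list on pyruvate dehydrogenase and malonyl-CoA control were tested, and 6, 6, 3 and 6 were called higher and 6, 7, 2 and 4 lower. The paralogs of PDK4 moved apart. PDK2 rose in all 4 comparisons (1.14, 1.30, 0.93 and 1.05, adjusted p at most 4.28e-07), from 13.9 to 30.6 and 34.2 normalized CPM in PC9 and from 11.9 to 22.7 and 24.7 in H1650. PDK1, a hypoxia-responsive form, fell in PC9 (-2.12 and -2.05) and in H1650 with erlotinib (-0.85), and its osimertinib change in H1650 was 0.18 (adjusted p = 0.182). The PDK1 responses differed between the lines by 1.28 (adjusted p = 2.19e-07) and 2.23 (adjusted p = 3.05e-12). PDK3, named after its values were seen, changed by -0.25, -0.24, 0.04 and 0.39, of which the last was called and was lost without H1650 T0 replicate 2 (0.36) or H1650 osimertinib replicate 1 (0.20). The PC9 values of PDK3 were called with a fit to PC9 alone (adjusted p = 0.0318 and 0.0254) and with no filter (0.0472 and 0.0345), and that for erlotinib also without PC9 T0 replicate 1 or either H1650 osimertinib library (0.0479 to 0.0491). Against these kinases, the phosphatase gene PDP2 rose in all 4 (1.33, 1.67, 0.40 and 0.67). MPC1, of the mitochondrial pyruvate carrier, fell in PC9 (-1.33 and -1.79) and in H1650 with osimertinib (-0.46), the last not with DESeq2 nor without any of the 4 libraries compared (-0.45 to -0.46).

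**Figure D4:**
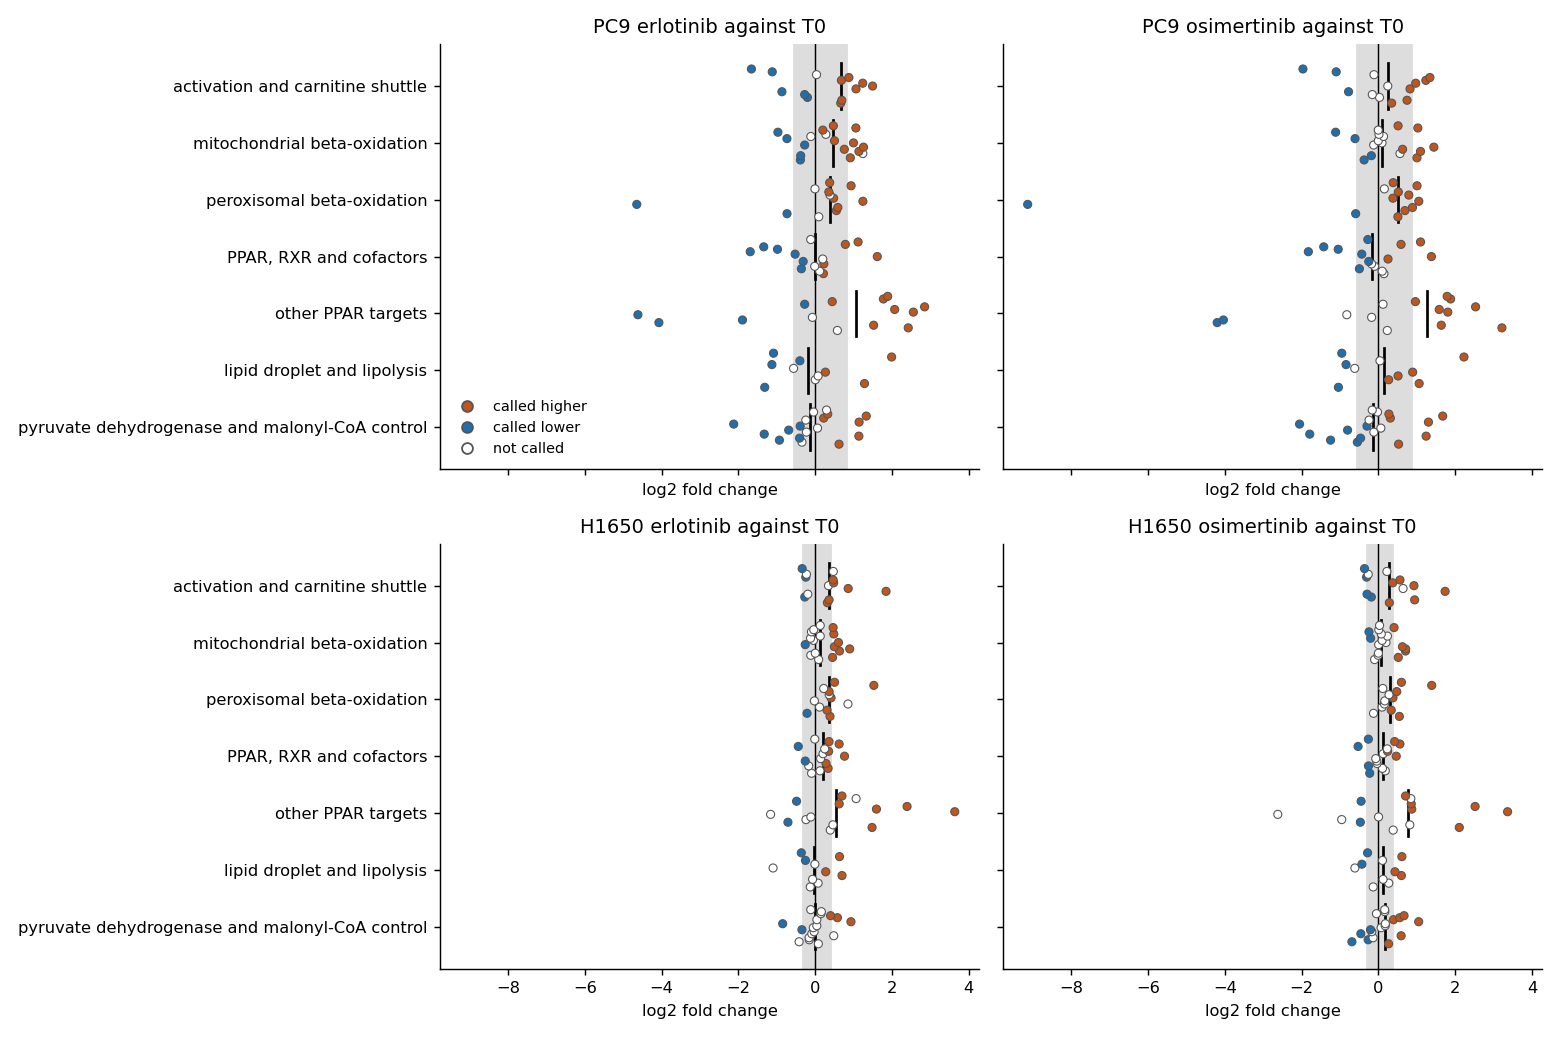
Log2 fold change against T0 (x axis) of the 99 tested genes of the 7 lists in the 4 drug comparisons. Points are genes, filled orange where called higher, blue where called lower and white where not called, black ticks are list medians, and the gray band spans the middle quartiles of all 19108 tested genes. The PPAR target list has its median tick to the right of the band in all 4 panels, and the H1650 bands and points are narrower.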

How the data were processed

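RNA-seq of 12 libraries in 6 groups was analysed. Reads were processed by the authors in DolphinNext and assigned to genes by featureCounts. The deposited values are counts, whole reads per gene and library without normalization, with a length for each gene. GRCh38 and DESeq2 are named in the submitters' processing notes, and the aligner, the annotation and the strand setting are not given in the sources used here. Samples were grouped by their labels. The study calls the replicates biological, and the labels do not say whether they came from separate cultures, so p-values measure the spread between these samples.

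The test was edgeR's quasi-likelihood test (edgeR 4.0.16, R 4.3.3, TMM factors 0.941 to 1.08, expression filter by group). One mean per group was fitted to the 12 libraries together, and a gene was called where its p, adjusted by Benjamini-Hochberg over 19108 genes, was under 0.05. The biological coefficient of variation was 0.0656, and all p-values are two-sided. Standard errors were taken from the log2 fold change and its F statistic. Counting intervals are binomial intervals of reads pooled over the libraries of a group. The alternatives were DESeq2 1.42.0, RLE normalization, other filters and thresholds, fits by line, a replicate block and leaving out each library. The test was also run on simulated data, in which 200 genes with a mean above 1 CPM were changed in the PC9 erlotinib libraries only. This setting does not cover changes in genes of few reads or the larger share of genes called here. The members and the lists were chosen with earlier results of these data known. From each list the 2 highest and 2 lowest mean drug changes were named among genes called at least once with a mean of at least 1 CPM, and PPARA, PPARD, PPARG and RXRA in any case. The result of 1 gene named by this rule is not reported here. Positions and overlaps are those of GENCODE 29.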

Additional observations from a re-analysis of the deposited data

Results flagged for a closer look

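For 4 members the change with a drug differed between the lines by a test of that difference (H1650 minus PC9, log2, edgeR). ANGPTL4 differed by 1.54 with osimertinib, falling in PC9 and not detectably changing in H1650. PLIN2 differed by 0.83 with erlotinib and 1.06 with osimertinib, CPT1A by -0.89 and -1.04, and CPT2 by 0.50 and 0.54. In each case 2 libraries a group entered the comparison. CPT1A was the member whose difference was called under all alternatives run, while the differences of ANGPTL4, PLIN2 and CPT2 were each lost without PC9 T0 replicate 2. No group has 4 libraries, so single libraries were not tested as outliers.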

How the results depend on the processing

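Of the values of the 7 tested members under the alternatives, 1291 kept their direction and side of the threshold, 70 lost a call, 20 gained one and 21 changed sign, all of the latter being values not called. For the other named genes the counts were 2531, 52, 10 and 5. The causes were not tested. Requiring at least 10 counts in every library left PDK4 and ANGPTL4 untested, so 3 members were called in PC9 with erlotinib, 2 in PC9 with osimertinib and 4 between the erlotinib-treated lines, and ACADM in PC9 with osimertinib changed to 0.01622. At an adjusted p under 0.01, 3 members were called in PC9 and 2 in H1650 with erlotinib, and 2 differed between the lines with osimertinib. A fit to PC9 alone called 3 with erlotinib, and no such fit can compare the lines. Over all tested genes, the deviations of same-numbered replicates were weakly correlated (15 correlations between -0.0671 and 0.0947). These correlations do not settle whether the numbers pair the samples. The replicate block raised the calls over all tested genes in every comparison. For osimertinib against erlotinib in H1650 they went from 959 higher and 713 lower to 1514 and 1156. With the replicate block, 1 member (ACADVL, 0.17, adjusted p = 0.0273) was called between osimertinib and erlotinib in PC9, and the other counts of members and list genes stayed within 1.5 times. The block also gave calls for CPT2 in H1650 with erlotinib (0.33, adjusted p = 0.0403), ACADVL in H1650 with osimertinib (0.18, adjusted p = 0.00999), ACADM between osimertinib and erlotinib in H1650 (-0.28, adjusted p = 0.0102) and PPARD in H1650 with erlotinib (0.20, adjusted p = 0.0384), and it lost none.

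Without single libraries the members called ranged from 2 to 5 in PC9 with erlotinib, 3 to 5 with osimertinib, 1 to 5 in H1650 with erlotinib and 1 to 3 with osimertinib. They ranged from 2 to 4 for the difference between the lines with either drug, from 0 to 4 for osimertinib against erlotinib in H1650, and were 0 in PC9 and 5 at T0. A group left with 1 library is assumed to vary like the others. The values that changed sign then ranged, in PC9, for CPT2 from -0.1407 to 0.0259 and for ACADM from -0.1137 to 0.04468 with osimertinib. In H1650 with erlotinib they ranged for G0S2 from -0.7836 to 0.4638, for BSCL2 from -0.0712 to 0.1947 and for MPC1 from -0.2737 to 0.07247, and with osimertinib for ANGPTL4 from -0.2304 to 0.07164 and for ACADM from -0.001358 to 0.1276. ACADVL differed between the lines with erlotinib by -0.04184 to 0.1247. For osimertinib against erlotinib, the ranges in PC9 were -0.4372 to 0.7362 for ANGPTL4, -0.04267 to 0.2614 for PLIN2 and -0.03054 to 0.2737 for CPT2, and in H1650 -0.1491 to 0.9651 for PDK4, -0.0002756 to 0.2977 for CPT2 and -0.103 to 0.02281 for ACADVL. Between the lines they were -1.78 to 0.9795 for PDK4 and -0.1349 to 0.02364 for ACADM at T0, and -0.01936 to 0.08298 for ACADM with osimertinib. Depth limits PDK4 at T0 and in H1650 and ANGPTL4 in PC9, which rest on 1 to 26 reads a library.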
